A study of Mus musculus with 16 samples.

Results

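The 10 genes described here are expressed by the cells of blood vessels and were read from libraries of olfactory bulb microglia: Cavin1, Cavin2, Abcb1a, Alpl, Pecam1, Flt1, Slco1a4, Cldn5, Ackr1 and Slc2a1. They were taken by symbol from the 57010 genes of the count table, and all 10 passed the filter on low counts that kept 18227 genes. Cavin1, Cavin2, Abcb1a and Alpl were chosen by their levels, since they had been seen to vary between the 4 groups, so their levels and fold changes are given as a description with no test. The other 6 were chosen as markers of the blood-brain barrier, the endothelium and venules, and were tested. They were chosen with earlier results of these data known, so their tests may not be independent of those results.

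The 16 libraries came from mice aged 2 months, 4 from each sex of 2 genotypes: WT female, WT male, APP-NL-G-F female and APP-NL-G-F male. WT mice were C57BL/6J, and APP-NL-G-F mice carry a knock-in (labelled KI) at the mouse App locus, so that App with the Swedish, Arctic and Iberian familial Alzheimer changes is expressed from its own promoter and in every cell type that uses it. Cells of all groups were taken from perfused and papain-digested olfactory bulbs with magnetic beads against CD11b, a surface antigen of microglia and other myeloid cells, and received no treatment. The labels number the replicates 1 to 4 but do not tie a library to an animal, so p-values measure the spread between libraries. In the fit of the 4 groups this spread was estimated for each gene over all 16 libraries. The groups were not equally spread: the SD of Slco1a4 was 53.4% of the mean in WT females and 9.35% in APP-NL-G-F females. Flt1, Cldn5 and Slc2a1 were also more spread in WT females than in APP-NL-G-F females, whereas Pecam1 and Ackr1 were less so.

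Endothelial cells line the vessels, and in the brain they form a barrier by sealing their junctions, carrying few caveolae and placing transporters in both membranes. Caveolae are small pits of the plasma membrane that are built from caveolins and from a coat of cavins. Along the vascular tree, capillary endothelium carries most of the transporters, whereas venules carry receptors for leukocytes and chemokines. Microglia are not known as a main source of the barrier genes, and myeloid cells do carry PECAM1 on their surface.

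Microglial markers dominated every library. The summed level of 12 of them was between 20860 and 24650 CPM (counts scaled to equal depth with TMM factors) in the 16 libraries, and Itgam, which encodes the CD11b antigen, had 415.2 to 577.5 CPM. The 10 vessel genes together had between 85.2 and 256 CPM. Library totals ran from 9052932 to 18117286 counts. In these bulk libraries, more vessel cells and more RNA of these genes per cell cannot be told apart.

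To show where transcription of the 4 chosen genes starts, the 250 bases before the start of their canonical transcripts were read from GRCm39, 5′ to 3′ on the strand of the gene. Capitals mark matches to the searched letters, on both strands. These were TATAAA of the TATA box, CCAAT bound by NF-Y factors, GGGCGG of SP sites, CACGTG of the E-box, GGAAG as the core of many ETS sites and CACCC as that of many KLF sites; only CACCC and CCAAT overlapped each other in a printed match of Cavin1, and GGAAG and CACCC adjoined in Cavin2.
Cavin1 (chr11:100861714-100861963, minus strand): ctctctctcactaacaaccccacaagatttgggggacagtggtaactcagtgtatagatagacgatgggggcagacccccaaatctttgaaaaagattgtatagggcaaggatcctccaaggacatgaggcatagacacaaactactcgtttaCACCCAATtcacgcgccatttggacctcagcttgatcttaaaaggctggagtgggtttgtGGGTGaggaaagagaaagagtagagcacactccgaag
Cavin2 (chr1:51328016-51328265, plus strand): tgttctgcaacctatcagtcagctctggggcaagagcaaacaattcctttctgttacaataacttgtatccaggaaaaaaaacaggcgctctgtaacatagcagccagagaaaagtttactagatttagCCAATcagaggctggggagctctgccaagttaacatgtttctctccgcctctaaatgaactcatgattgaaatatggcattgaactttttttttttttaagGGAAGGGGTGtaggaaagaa
Abcb1a (chr5:8709772-8710021, plus strand): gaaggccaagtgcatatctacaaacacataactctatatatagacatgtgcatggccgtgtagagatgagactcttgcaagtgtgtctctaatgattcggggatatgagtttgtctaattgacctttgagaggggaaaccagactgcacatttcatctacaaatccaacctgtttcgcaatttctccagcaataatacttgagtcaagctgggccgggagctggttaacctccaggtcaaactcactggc
Alpl (chr4:137523711-137523960, minus strand): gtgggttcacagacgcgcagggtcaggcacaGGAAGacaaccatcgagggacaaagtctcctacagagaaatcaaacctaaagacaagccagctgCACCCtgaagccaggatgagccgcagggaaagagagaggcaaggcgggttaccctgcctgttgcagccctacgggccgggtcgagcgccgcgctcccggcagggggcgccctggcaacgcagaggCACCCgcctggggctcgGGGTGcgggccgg

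CACCC was in the printed bases of Cavin1, Cavin2 and Alpl, and GGAAG in those of Cavin2 and Alpl. Cavin1 and Cavin2 both held CCAAT, at -94 and -121 from the start, whereas the printed bases of Abcb1a held none of the searched motifs. Over the longer window of 250 bases before to 50 after the start, 9 of the 10 genes held CACCC, against 58.7% of 21770 promoters. GGAAG was found in 6 of 10 against 71.9%, CCAAT in 4 of 10 against 39.9%, and GGGCGG in 5 of 10 against 42.5%. TATAAA was present in Flt1 alone among the 10, against 13.2% of promoters, and CACGTG in none of them, against 7.81%. The GC content of the window was 70.3% for Alpl, 49.7% for Cavin1, 46.3% for Abcb1a and 42.7% for Cavin2, where the median promoter had 54.3%.

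Cavin1 and Cavin2, which encode parts of the coat of caveolae, were highest in WT females and lowest in WT males. Cavin1 (GRCm39, chr11:100847559-100861713, minus strand, 2 exons), whose product is needed to form caveolae, had 12.3, 13.6, 7.21 and 5.73 CPM in WT female replicates 1 to 4 and 3.51, 3.04, 3.14 and 4.47 CPM in WT males. The APP-NL-G-F females had 4.62, 3.36, 5.43 and 4.94 CPM and the APP-NL-G-F males 6.21, 7.94, 5.29 and 6.54 CPM. Every WT female library lay above every WT male library, and the means were 9.73 ± 3.85 and 3.54 ± 0.653 CPM (SD, n = 4). Both APP-NL-G-F groups lay between them, at 4.59 ± 0.883 CPM in females and 6.494 ± 1.1 CPM in males.

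Cavin2 (chr1:51328266-51345710, plus strand, 2 exons), which encodes a cavin found in endothelial caveolae, showed the same order at a lower level. It had 4.38, 7.28, 2.86 and 3.59 CPM in WT females and 1.03, 0.731, 0.785 and 1.52 CPM in WT males. The APP-NL-G-F females were narrowly spaced at 1.41, 1.49, 1.46 and 1.27 CPM, and the APP-NL-G-F males had 2.04, 3.23, 2.69 and 2.88 CPM. No APP-NL-G-F male library overlapped with an APP-NL-G-F female library, whereas the latter overlapped with WT males.

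Among the transporters, Abcb1a (chr5:8710022-8798575, plus strand, 28 exons), which encodes a P-glycoprotein that pumps drugs back into the blood, varied most. WT females had 16.01, 25.7, 10.1 and 9.48 CPM and WT males 4.28, 2.64, 3.81 and 4.06 CPM. APP-NL-G-F females had 6.22, 6.34, 6.72 and 5.61 CPM and APP-NL-G-F males 7.57, 10.8, 6.97 and 10.5 CPM. Apart from the overlap of WT females with APP-NL-G-F males, neighbouring groups in this order were fully separate. Abcb1b, the P-glycoprotein gene next to it, had 30.1 to 41.0 CPM, and its genotype effect in females minus that in males was 0.03 ± 0.12 (log2, SE), which did not pass the test (edgeR, FDR = 0.995).

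Slco1a4 (chr6:141751165-141802036, minus strand, 17 exons) encodes an organic anion transporter of the brain endothelium. It had 19.2, 25.7, 12.1 and 6.24 CPM in WT females and 4.45, 3.15, 5.49 and 5.49 CPM in WT males. In APP-NL-G-F females it had 6.82, 8.36, 7.75 and 7.04 CPM and in APP-NL-G-F males 6.29, 12.9, 4.95 and 10.2 CPM. WT females lay above WT males without overlap but spread over a wide range, and replicate 4 was below APP-NL-G-F libraries of both sexes. The related genes Slco1a1, Slco1a5 and Slco1a6 had at most 3 counts in any library.

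Slc2a1 (chr4:118965908-118996365, plus strand, 10 exons), the gene of the glucose transporter GLUT1 of barrier endothelium and many other cells, had the highest level of the 10. WT females had 75.7, 67.5, 52.4 and 43.3 CPM and WT males 31.9, 33.5, 36.8 and 37.1 CPM. APP-NL-G-F females had 38.7, 34.5, 33.9 and 34.9 CPM and APP-NL-G-F males 34.3, 40.5, 39.8 and 42.1 CPM. The WT female libraries lay above all 12 others, which overlapped with each other across the groups.

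The junction gene Cldn5 (chr16:18595597-18597012, plus strand, 1 exon) encodes claudin-5, the main claudin of the barrier. WT females had 11.1, 14.2, 9.99 and 6.49 CPM and WT males 5.31, 2.36, 4.04 and 3.15 CPM. APP-NL-G-F females had 5.08, 4.70, 6.55 and 5.31 CPM and APP-NL-G-F males 3.91, 5.79, 5.12 and 7.17 CPM. The WT sexes did not overlap, and the means of the APP-NL-G-F sexes were close, at 5.41 ± 0.797 CPM in females and 5.50 ± 1.36 CPM in males (SD, n = 4).

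Pecam1 (chr11:106543689-106641454, minus strand, 16 exons), the adhesion gene shared by endothelium and myeloid cells, varied least. It ranged from 32.0 to 41.6 CPM in WT females, 27.6 to 30.0 CPM in WT males, 28.7 to 38.1 CPM in APP-NL-G-F females and 27.9 to 31.2 CPM in APP-NL-G-F males. The WT sexes were separate by a small step, and each of the other neighbouring groups overlapped. Its highest group mean was 1.34 times its lowest, the smallest ratio of the 10 genes.

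Flt1 (chr5:147498414-147662826, minus strand, 30 exons) encodes VEGF receptor 1. WT females had 46.3, 58.2, 28.8 and 18.7 CPM and WT males 14.7, 9.17, 16.1 and 14.2 CPM. APP-NL-G-F females had 18.7, 16.04, 23.5 and 19.0 CPM and APP-NL-G-F males 16.8, 26.9, 18.3 and 25.5 CPM. Replicates 1 and 2 of the WT females stood well above every other library, while replicate 4 was among the APP-NL-G-F values.

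Alpl (chr4:137469039-137524102, minus strand, 12 exons), the gene of tissue-nonspecific alkaline phosphatase, an enzyme used to stain brain capillaries and arterioles, was the rarest of the 4 chosen genes. It had 44, 17, 22 and 15 counts in the WT females, which were 2.75, 1.97, 1.57 and 1.28 CPM, and 5, 2, 4 and 2 counts in the WT males, or 0.428, 0.113, 0.448 and 0.203 CPM. The APP-NL-G-F females had 1.07, 0.672, 1.12 and 0.524 CPM and the APP-NL-G-F males 0.936, 1.24, 1.09 and 1.27 CPM. The WT female group and the WT male group were each separate from every other group.

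Ackr1 (chr1:173159453-173161317, minus strand, 2 exons), the atypical chemokine receptor that marks venular endothelium, followed another order. WT females had 3, 3, 7 and 8 counts (0.188, 0.347, 0.4997 and 0.684 CPM) and WT males 6, 9, 4 and 8 counts (0.514, 0.506, 0.448 and 0.813 CPM). APP-NL-G-F females had 10, 20, 30 and 9 counts (0.669, 1.49, 2.58 and 0.674 CPM) and APP-NL-G-F males 13, 15, 7 and 18 counts (1.11, 1.24, 0.588 and 1.27 CPM). The APP-NL-G-F libraries were mostly higher, with an overlap in each sex.

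The group means of the chosen 4 ran from WT female through APP-NL-G-F male and APP-NL-G-F female to WT male, from high to low. Of the other 6 genes 4 had this order, Flt1, Slco1a4, Cldn5 and Slc2a1, as did 4.37% of all tested genes. Pecam1 had the APP-NL-G-F sexes exchanged, and Ackr1 ran from APP-NL-G-F females down to WT females. The ratio of the highest to the lowest group mean was 6.35 for Alpl, 4.45 for Cavin2, 4.14 for Abcb1a and 2.75 for Cavin1, the chosen 4, and between 1.34 and 3.40 for the other 6. Cavin1 was thus below Slco1a4, Ackr1, Cldn5 and Flt1 by this ratio. Per kilobase of exon, which allows levels to be set between genes, the mean over the 16 libraries was 9.02 CPM for Slc2a1, 4.43 for Cldn5, 3.26 for Pecam1, 1.70 for Flt1, 1.39 for Abcb1a, 1.14 for Cavin1 and 1.07 for Slco1a4. Ackr1 at 0.606, Cavin2 at 0.351 and Alpl at 0.201 CPM per kilobase were the lowest. The plot of CPM by group shows how far WT female replicates 1 and 2 stood from the rest.

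**Figure D1:**
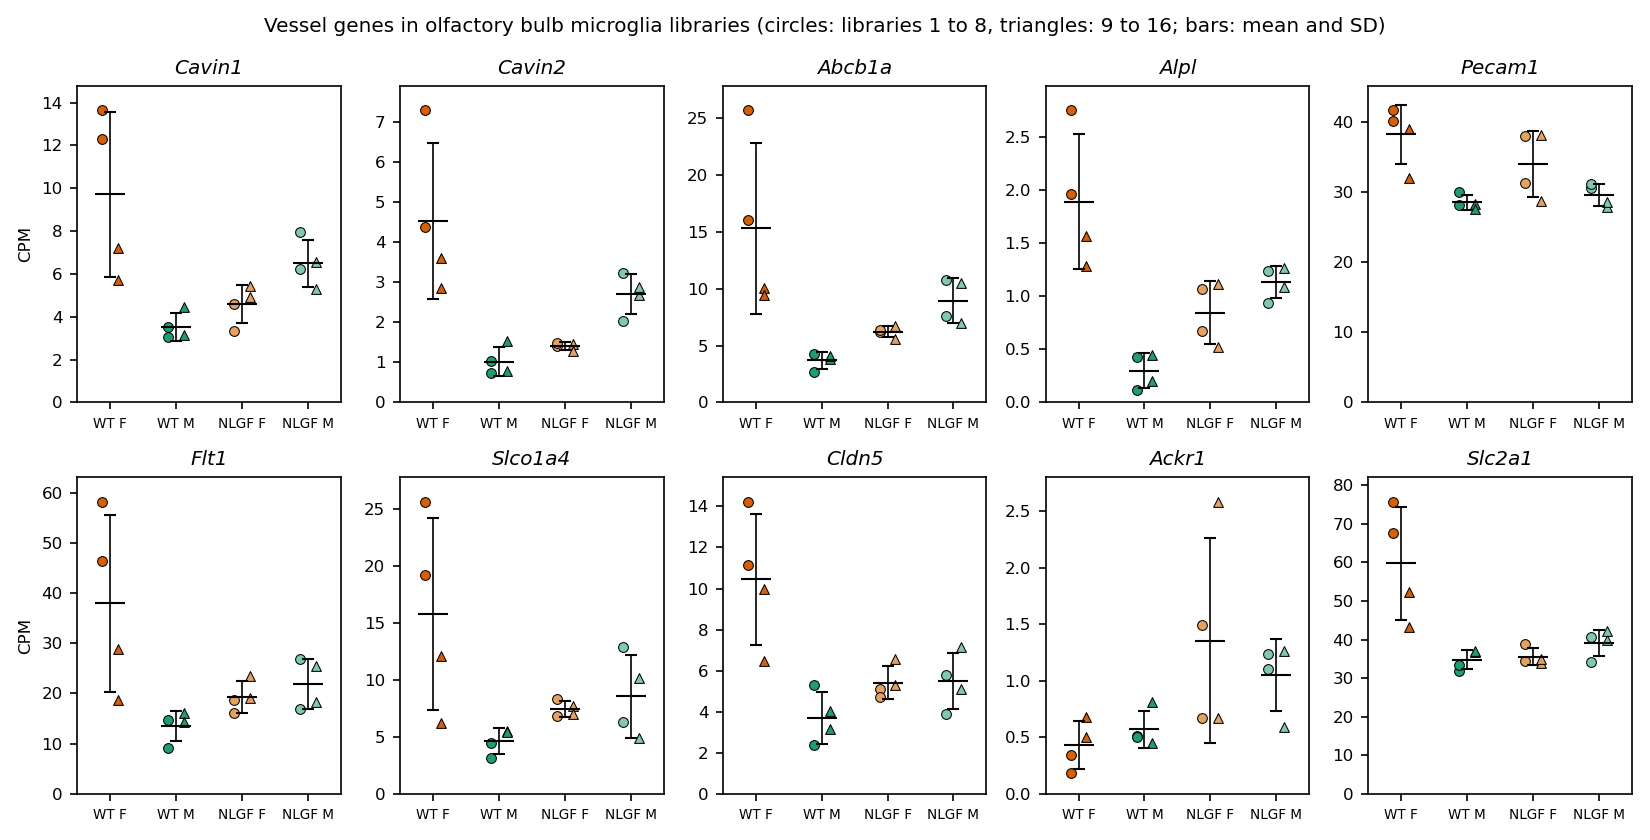
CPM of each of the 10 vessel genes (vertical axis from 0, a separate scale for each gene) in the 4 groups, WT females (WT F), WT males (WT M), APP-NL-G-F females (NLGF F) and APP-NL-G-F males (NLGF M). Points are libraries, circles for library numbers 1 to 8 and triangles for 9 to 16, and bars give mean ± SD (n = 4); WT females are highest in 9 panels, and Ackr1 is highest in APP-NL-G-F females.

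The sexes were compared within WT first. Of the 6 genes not chosen on their levels, 4 were lower in WT males than in WT females: Flt1, Slco1a4, Cldn5 and Slc2a1. Calls needed an FDR below 0.1 over all 18227 genes and an absolute log2 fold change above 0.5 (edgeR's quasi-likelihood test on the 4 groups), and 0.839% of all genes were called lower and 0.0988% higher in WT males. The log2 fold change, male minus female, was -1.79 ± 0.35 for Slco1a4 (SE, FDR = 0.0319), -1.51 ± 0.26 for Cldn5 (FDR = 0.0123), -1.501 ± 0.27 for Flt1 (FDR = 0.021) and -0.78 ± 0.13 for Slc2a1 (FDR = 0.00947). Pecam1, at -0.42 ± 0.10 with an FDR of 0.063, was under the fold threshold, and Ackr1, at 0.41 ± 0.54, did not pass (FDR = 0.834). For the 4 chosen genes the differences were -2.75 for Alpl, -2.15 for Cavin2, -2.05 for Abcb1a and -1.46 for Cavin1. Every WT male library was below every WT female library for 5 of the 6 tested genes, as for 4.2% of all genes, and for the chosen 4, from which nothing is read.

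These calls rested on few libraries. The count was 2 without WT female replicate 1 and 2 without WT female replicate 2, and it was 1 without WT male replicate 2. In these fits 0.133%, 0.149% and 0.0721% of all genes were called in either direction, against 0.938% with all libraries. Without WT female replicates 1 and 2 together 0 of the 6 genes and 0.0546% of all genes were called in this comparison. Cldn5 then differed by -1.17 and Slc2a1 by -0.46, while among library numbers 9 to 16 alone the differences were -0.65 for Flt1, -0.75 for Slco1a4 and -0.38 for Slc2a1.

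Genotype in females, APP-NL-G-F minus WT, gave 4 lower genes and 1 higher gene among the 6. Flt1 fell by 0.97 ± 0.26 on the log2 scale (SE, edgeR FDR = 0.0383), Slco1a4 by 1.07 ± 0.33 (FDR = 0.0692), Cldn5 by 0.95 ± 0.24 (FDR = 0.0287) and Slc2a1 by 0.75 ± 0.13 (FDR = 0.00206). Ackr1 rose by 1.63 ± 0.47 (FDR = 0.0506), and Pecam1 was at -0.17 ± 0.09 (FDR = 0.337). Over all genes 4.33% were called lower and 2.82% higher in this comparison. The chosen 4 were at -1.65 (Cavin2), -1.28 (Abcb1a), -1.17 (Alpl) and -1.079 (Cavin1), a description of the values that selected them. Only Slc2a1 of the 6 had all APP-NL-G-F female libraries below all WT female libraries, as did 7.41% of all genes and the chosen 4.

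The number of calls in females moved with single libraries. It was 1 without WT female replicate 1 and 1 without WT female replicate 2, 2 without APP-NL-G-F female replicate 2, and 3 without APP-NL-G-F female replicate 3. The share of all genes called in these fits was 3.29%, 4.05%, 5.58% and 3.85%, against 7.15% with all libraries. Slc2a1 was called in each of the 16 fits that left out 1 library, whereas Slco1a4 was lost in 6 of them, Ackr1 in 4, Flt1 in 3 and Cldn5 in 2. Without WT female replicates 1 and 2 together, and also among library numbers 9 to 16 alone, 0 of the 6 were called, beside 1.67% and 1.78% of all genes. Slc2a1 was then under the fold threshold, at -0.42 (FDR = 0.054) and -0.47 (FDR = 0.0741). In the latter Flt1 was at -0.16 and Cldn5 at -0.47.

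In males the same contrast gave values of the opposite sign for most genes, none of which passed. The log2 fold change was 0.92 ± 0.36 for Slco1a4 (SE, edgeR FDR = 0.325), 0.72 ± 0.28 for Flt1 (FDR = 0.318), 0.59 ± 0.26 for Cldn5 (FDR = 0.397), 0.89 ± 0.47 for Ackr1 (FDR = 0.483), 0.17 ± 0.13 for Slc2a1 (FDR = 0.633) and 0.05 ± 0.10 for Pecam1 (FDR = 0.876). Thus 0 of 6 were called with edgeR, 3 had an unadjusted p below 0.05, as did 11.7% of all genes, and 0.0878% of all genes were called higher and 0.165% lower. With no filter on low counts 3 were called, beside 2.23% of 39394 genes, and among library numbers 1 to 8 alone 2, beside 11.3% of all genes. The chosen 4 were higher by 2.00 (Alpl), 1.44 (Cavin2), 1.30 (Abcb1a) and 0.89 (Cavin1). All APP-NL-G-F male libraries were above all WT male libraries for 1 of the 6, Flt1, as for 1.83% of all genes, and for the chosen 4.

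The difference between the sexes in the genotype effect was tested directly as an interaction, female effect minus male effect. It was -1.99 ± 0.49 for Slco1a4 (SE, edgeR FDR = 0.251), -1.69 ± 0.38 for Flt1 (FDR = 0.232), -1.54 ± 0.36 for Cldn5 (FDR = 0.232) and -0.92 ± 0.18 for Slc2a1 (FDR = 0.152). None of the 6 was called with edgeR, although 4 had an unadjusted p below 0.05, as did 5.94% of all genes, and DESeq2 called 4. Over all genes 0.0274% were called lower and 0% higher with edgeR, and 0.444% were called by DESeq2. Without WT female replicate 4 the edgeR count was 4, and without WT female replicate 3 it was 1, where 0.238% and 0.21% of all genes were called. Among the chosen 4, which have no test, the difference was largest for Alpl (-3.17) and Cavin2 (-3.09), followed by Abcb1a (-2.58) and Cavin1 (-1.96).

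**Figure D2:**
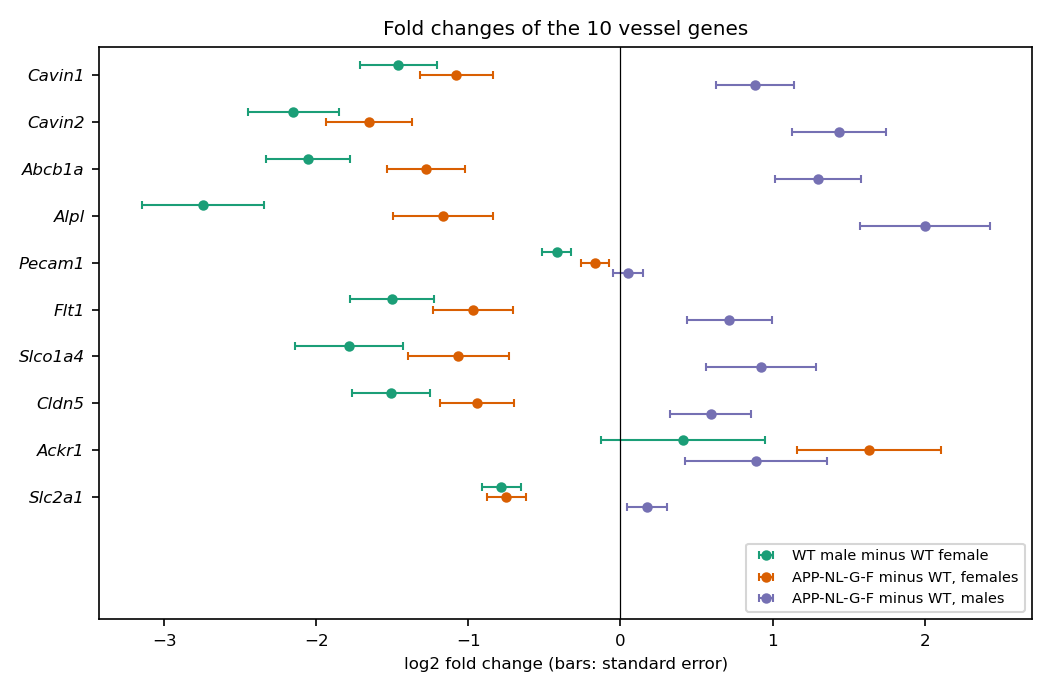
Log2 fold changes (horizontal axis, points with bars of 1 standard error) of the 10 genes in 3 contrasts: WT males minus WT females (green), and APP-NL-G-F minus WT in females (orange) and in males (violet). For all genes but Ackr1 the first and second contrast are below 0 and the third above it; Pecam1 lies closest to 0 in both genotype contrasts, and the contrasts share WT groups.

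Over both sexes, with sex as a term of the fit, genotype gave 1 call among the 6, Ackr1, which was higher in APP-NL-G-F libraries. Its log2 fold change was 1.26 ± 0.34 (SE, edgeR FDR = 0.0243), and 4.33% of all genes were called higher and 4.3% lower. Ackr1 was called in all 16 fits that left out 1 library but not without WT female replicates 1 and 2 together, nor among library numbers 9 to 16 alone. Its log2 fold change there was 1.01 (FDR = 0.119) and 1.05 (FDR = 0.604), where 4.73% and 0.438% of all genes were called. The other 5 ran from -0.30 ± 0.14 for Slc2a1 (FDR = 0.202) to -0.06 ± 0.07 for Pecam1 (FDR = 0.66). Cavin1, Cavin2, Abcb1a and Alpl were at -0.15, -0.25, -0.10 and 0.04, where the opposite values of the sexes nearly cancel.

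Ackr1 shares exons with Cadm3, a gene of a neuronal adhesion protein on the same strand. In the reference annotation used here 361 of the 1405 exonic bases of Ackr1 (25.7%) also belong to Cadm3. Cadm3 was higher in APP-NL-G-F females than in WT females by 0.94 ± 0.24 (log2, SE, edgeR FDR = 0.0299) and over both sexes by 0.60 ± 0.19 (FDR = 0.0502), and it had 8.32 to 31.7 CPM. How reads over the shared bases were assigned was not tested, so the counts of Ackr1 are uncertain. Other genes overlapping the 10 that could be matched had at most 8 counts in any library.

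Between the sexes of APP-NL-G-F mice none of the 6 genes differed by the test, with edgeR log2 fold changes, male minus female, from -0.33 ± 0.41 (Ackr1, SE) to 0.20 ± 0.34 (Slco1a4) and an FDR of 1 for each. Pecam1, at -0.20 ± 0.10, had the only unadjusted p below 0.05, which 2.23% of all genes had. Of all genes 0.0329% were called higher in males of this genotype and 0.0219% lower. The chosen 4 were higher in males by 0.94 (Cavin2), 0.53 (Abcb1a), 0.51 (Cavin1) and 0.42 (Alpl).

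The labels number the libraries from 1 to 16, and replicates 1 and 2 of every group hold numbers 1 to 8. The labels do not call this a batch. In numbers 1 to 8 the WT female means were 52.2 CPM for Flt1, 22.4 for Slco1a4, 20.8 for Abcb1a and 12.98 for Cavin1, against 23.8, 9.19, 9.78 and 6.47 CPM in numbers 9 to 16. In the other 3 groups these sets were closer: Flt1, for example, had 11.9 and 15.2 CPM in WT males, 17.4 and 21.3 in APP-NL-G-F females, and 21.9 in both sets of the APP-NL-G-F males. Of the 6 genes not chosen on their levels 5 had a higher mean in WT females than in WT males in each set, as did 28.3% of all tested genes, and Ackr1 did not. In numbers 9 to 16 the chosen 4 differed between the WT sexes by -2.12 (Alpl), -1.45 (Cavin2), -1.31 (Abcb1a) and -0.76 (Cavin1).

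The genes varied together within the groups as well. On log2 CPM less the group mean over the 16 libraries, which removes the group differences, Pearson's r was 0.91 for Flt1 with Slco1a4, the highest of the pairs. The median r with the other 9 genes was 0.78 for Flt1, 0.77 for Abcb1a, 0.70 for Slco1a4, 0.69 for Cavin1, 0.58 for Cldn5, 0.54 for Cavin2 and Slc2a1, 0.52 for Alpl, 0.46 for Pecam1 and -0.08 for Ackr1. These values are descriptive, since the points share libraries and the high WT female replicates.

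**Figure D3:**
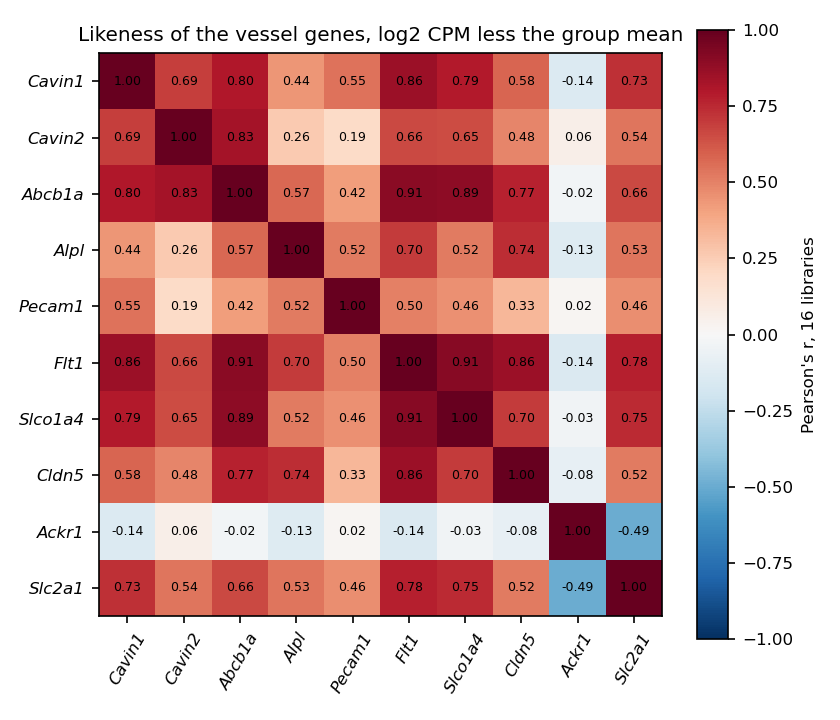
Pearson's r between the 10 genes over 16 libraries, on log2 CPM less the group mean (color scale from -1 to 1). Flt1, Slco1a4, Abcb1a and Cavin1 form the darkest block, and Ackr1 has a median r of -0.08 with the others.

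Among 13316 other genes ranked in the same way, those most like the mean of the 10 were Itih5 (r = 0.95), Ptprb, which encodes the phosphatase VE-PTP (0.93), Tek, the angiopoietin receptor (0.93), Heg1 (0.92), Cgnl1 of cell junctions (0.92), Stard13 (0.91), Vwa1 (0.91), Jcad of endothelial junctions (0.91), Slco1c1, a thyroid hormone transporter of the barrier (0.90), and Adgrf5 (0.89). Without the 2 libraries farthest from the median of the mean these r were 0.81 to 0.92. By list, the median r with this mean was 0.72 for 20 other endothelial genes, 0.66 for astrocyte markers, 0.63 for olfactory ensheathing cell markers, 0.62 for pericyte markers and -0.17 for microglial markers, against -0.02 over all ranked genes. Among the other vessel lists it was 0.72 for endothelial receptors and surface proteins, which hold 13 of these 20 genes. It was 0.46 for arterial genes and for smooth muscle markers, 0.40 for transporters and 0.29 for endothelial transcription factors. The lowest were 0.28 for caveola genes, 0.14 for fibroblast markers, 0.07 for junctions and 0.00 for venular genes. The caveola and junction lists also hold genes that many cells express. With Abcb1a it was 0.77 for astrocyte markers and 0.71 for the 20 endothelial genes. Abcb1a was closest to Cgnl1 (0.94), Itih5, Vwa1, Arl4a and Lef1, and Cavin1 to Heg1 (0.89), Jcad, Ptprb, Itm2a and Vwa1. Cavin2 was closest to Fgd5 (0.90), a regulator of endothelial cells, followed by Kctd5, Unc13c, Cul4a and Vwa1. Alpl, the rarest of the 4, had Gpd2 (0.83), Igfbp2, Tecr, Nrsn1 and Slc25a40.

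The rest of the vessel pathway was read from lists that do not hold the 10 genes. These lists, too, were chosen with earlier results of these data known. Of 20 other endothelial genes 13 were lower in WT males than in WT females and 11 were lower in APP-NL-G-F than in WT females (edgeR, FDR below 0.1 and fold threshold as above), with median log2 fold changes of -1.72 and -1.02 against 0.00 over all genes. Over all genes 0.839% and 4.33% were called lower in these comparisons. All 20 are also in the lists of receptors (13), transcription factors (3), junctions (2) and transporters (2) described next, so those counts hold the same calls again. In males their median was 1.02, and 0 were called with edgeR. Ly6c1 of capillary endothelium had 5.97 ± 3.64 CPM (SD, n = 4) in WT females and 1.31 ± 0.232 CPM in WT males. Adgrl4 fell from 9.53 ± 5.34 CPM in WT females to 4.16 ± 0.661 CPM in APP-NL-G-F females.

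The counts of called list genes also rested on few libraries, and not only on those named for the 10 genes. Without WT female replicates 1 and 2 together, an alternative chosen after seeing the data, 0 genes of any list were called lower in either comparison, and the medians of the 20 endothelial genes were -1.07 between the WT sexes and -0.32 for genotype in females. Leaving out WT female replicate 1 alone gave 0 calls of these 20 in both comparisons, and leaving out replicate 2 gave 1 between the WT sexes and 0 for genotype. Without WT male replicate 2 the count between the WT sexes was 0, and without other WT males it was 4 (replicate 1), 7 (replicate 3) or 8 (replicate 4), where 0.0721%, 0.249%, 0.381% and 0.359% of all genes were called in either direction. For genotype in females it was 2, 1 and 1 without APP-NL-G-F female replicates 1, 2 and 4, and 7 without replicate 4 of the WT males or of the APP-NL-G-F males. The shares of all genes in these fits were 5.54%, 5.58%, 5.74%, 6.52% and 6.54%.

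Of 27 endothelial receptors and surface proteins, 15 were lower in WT males and 10 lower in APP-NL-G-F females than in WT females. The shares over all genes were 0.839% and 4.33%. Adgrf5 had the smallest p among them, with a log2 fold change of -1.87 ± 0.30 for WT males against WT females (SE, edgeR FDR = 0.00725) and -1.26 ± 0.28 for genotype in females (FDR = 0.0126). Ptprb was at -1.78 ± 0.33 (FDR = 0.0227) and -1.02 ± 0.31 (FDR = 0.0618). Itm2a was at -1.83 ± 0.34 between the WT sexes (FDR = 0.0227) and at -0.85 ± 0.31 for genotype in females, which did not pass (FDR = 0.127).

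The transcription factors of endothelium gave 6 lower genes in WT males and 9 in APP-NL-G-F females of 19 tested. The shares over all genes were 0.839% and 4.33%. Foxc1 and Foxf2, forkhead factors of brain vessels, had 3.02 ± 1.25 and 1.21 ± 0.275 CPM in WT females and 0.894 ± 0.186 and 0.368 ± 0.230 CPM in WT males (SD, n = 4). Epas1, a hypoxia-inducible factor, had 60.01 ± 26.6 and 26.7 ± 2.71 CPM. Klf4, which myeloid cells use too, had 190.7 ± 78.1 CPM in WT females and between 53.6 and 70.5 CPM in the means of the other groups, and fell by 1.83 ± 0.34 for genotype in females (log2, SE, edgeR FDR = 0.00349). Over both sexes 3 of these factors were lower by genotype, Klf4 (-1.02 ± 0.31, FDR = 0.0459), Klf2 (-0.86 ± 0.28, FDR = 0.0614) and Bcl6b (-0.74 ± 0.25, FDR = 0.0672). In this comparison 4.3% of all genes were called lower.

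Caveola genes other than Cavin1 and Cavin2 gave 1 call of 9 tested genes, Cavin3 and Cavin4 among them. This was Ehd2, an ATPase of the caveolar neck, at -1.49 ± 0.35 for WT males against WT females (log2, SE, edgeR FDR = 0.0658). In that comparison 0.839% of all genes were called lower, and 1 of the 9 genes had a log2 fold change above 0. The medians of the list were -0.61 there, -0.26 for genotype in females and 0.21 in males. Cavin3 had group means of 2.72 CPM in WT females and 1.597 CPM in WT males. Cavin4, which is known from muscle, had 1.196 CPM in APP-NL-G-F males and 1.123 CPM in APP-NL-G-F females. In WT females it had 0.736 CPM and in WT males 0.492 CPM. The list also holds genes that many cells express, and its summed level was 509.1 to 576.9 CPM. Of 19 tested barrier transporters 3 were lower in WT males, Slco1c1, the lipid carrier Mfsd2a and the organic anion transporter Slc22a8, and 2 lower in APP-NL-G-F females. The shares over all genes were 0.839% and 4.33%. Slco1c1 had 9.94 ± 5.30 CPM in WT females and 3.24 ± 0.893 CPM in WT males, and Mfsd2a 4.71 ± 1.47 and 2.01 ± 0.270 CPM (SD, n = 4).

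Of 14 tested junction genes 4 were lower in WT males, namely Cdh5 of adherens junctions, Lsr, Esam and Ocln, and 3 in APP-NL-G-F females. Over all genes 0.839% and 4.33% were called lower in these comparisons. Cdh5 had 10.2 ± 2.05 CPM in WT females, 5.72 ± 0.812 in WT males, 6.28 ± 0.836 in APP-NL-G-F females and 7.90 ± 2.22 in APP-NL-G-F males (SD, n = 4). The medians of the junction and transporter lists were near 0, at -0.13 and -0.18 between the WT sexes. Both lists also hold genes that many cells express, with summed levels of 791.5 to 985.6 CPM for junctions and 1486 to 1779 CPM for transporters. Their genes called in that comparison differed by -0.84 (Cdh5) to -1.65 (Esam), so the medians do not describe these genes. Arterial genes gave 2 lower calls in WT males and 4 in APP-NL-G-F females of 10 tested, among them Dll4, a Notch ligand, at -2.40 ± 0.53 in females (log2, SE, edgeR FDR = 0.0112), and Sema3g at -1.32 ± 0.33 (FDR = 0.0254). Of 8 tested venular genes 0 were called in either of these comparisons, and Il1r1 was lower over both sexes by genotype (-0.55 ± 0.19, FDR = 0.076). In the latter comparison 4.3% of all genes were called lower.

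**Figure D4:**
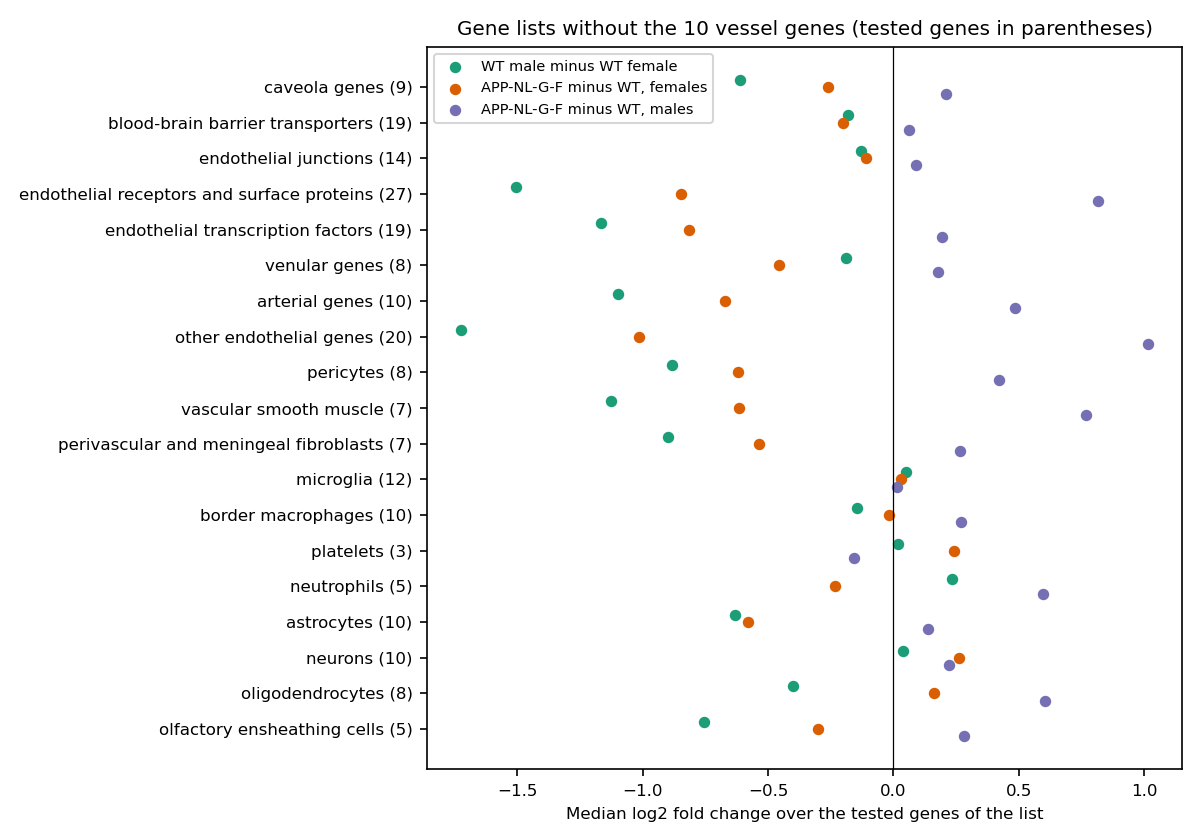
Median log2 fold change over the tested genes of each list (horizontal axis; number of tested genes in parentheses) for WT males minus WT females (green) and APP-NL-G-F minus WT in females (orange) and males (violet). Lists without the 10 vessel genes are shown: 20 other endothelial genes lie at -1.72, -1.02 and 1.02, and 12 microglial markers near 0.

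Markers of cells beside the endothelium moved with the vessel genes in part. Pericyte markers summed to 66.1 to 128 CPM in WT females, 36.1 to 51.5 CPM in WT males, 50.3 to 67.8 CPM in APP-NL-G-F females and 45.6 to 66.7 CPM in APP-NL-G-F males. Of 8 tested pericyte genes 4 were lower in WT males and 3 in APP-NL-G-F females, and Rgs5 had the smallest p, with -1.91 ± 0.30 and -1.09 ± 0.28 (log2, SE, edgeR FDR = 0.00579 and 0.0291). Over all genes 0.839% and 4.33% were called lower in these comparisons. Smooth muscle markers gave 2 lower calls of 7 in WT males, Myh11 and Mylk, and fibroblast markers 1 of 7, Col1a2. In APP-NL-G-F females Slc6a13 was the 1 fibroblast gene called lower, at -1.27 ± 0.33 (FDR = 0.0298). None of these lists had a gene at 0 in all libraries.

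Astrocyte markers summed to 632 to 1211 CPM in WT females and 591 to 679 CPM in WT males, and 3 of 10 (Gfap, Aldoc and Aqp4) were lower in APP-NL-G-F than in WT females. In that comparison 4.33% of all genes were called lower and 2.82% higher. Neuronal markers summed to 445 to 481 CPM in WT females and 569 to 670 CPM in APP-NL-G-F females, with Syt1 and Gad1 called higher. Of the oligodendrocyte markers Mog was called higher over both sexes (0.77 ± 0.22, log2, SE, edgeR FDR = 0.0335), as were 4.33% of all genes. Olfactory ensheathing cell markers gave 0 calls, with Fabp7 at 47.2 ± 16.1 CPM in WT females and 26.6 ± 5.34 CPM in WT males (SD, n = 4). The part of these cells in the vessel gene differences was not tested.

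Blood cells and macrophages gave no calls. Red blood cell genes summed to 0.102 to 3.51 CPM in the 16 libraries, and 0 of 7 passed the filter. Of 3 tested platelet genes, 5 neutrophil genes and 10 border macrophage genes 0 were called in any of the 6 comparisons, and 0 of 12 microglial genes. Of all genes 8.64% were called for genotype over both sexes, 7.15% for genotype in females and 0.0274% to 0.938% in the other comparisons. With such shares, 0 calls in lists this short say little about these cells. Csf1r of microglia, the receptor for CSF1, had group means of 5598 to 5722 CPM, and the border macrophage gene Mrc1 had 327.9 to 381.6 CPM. The microglial medians were 0.05 between the WT sexes, 0.03 for genotype in females and 0.02 in males.

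**Figure D5:**
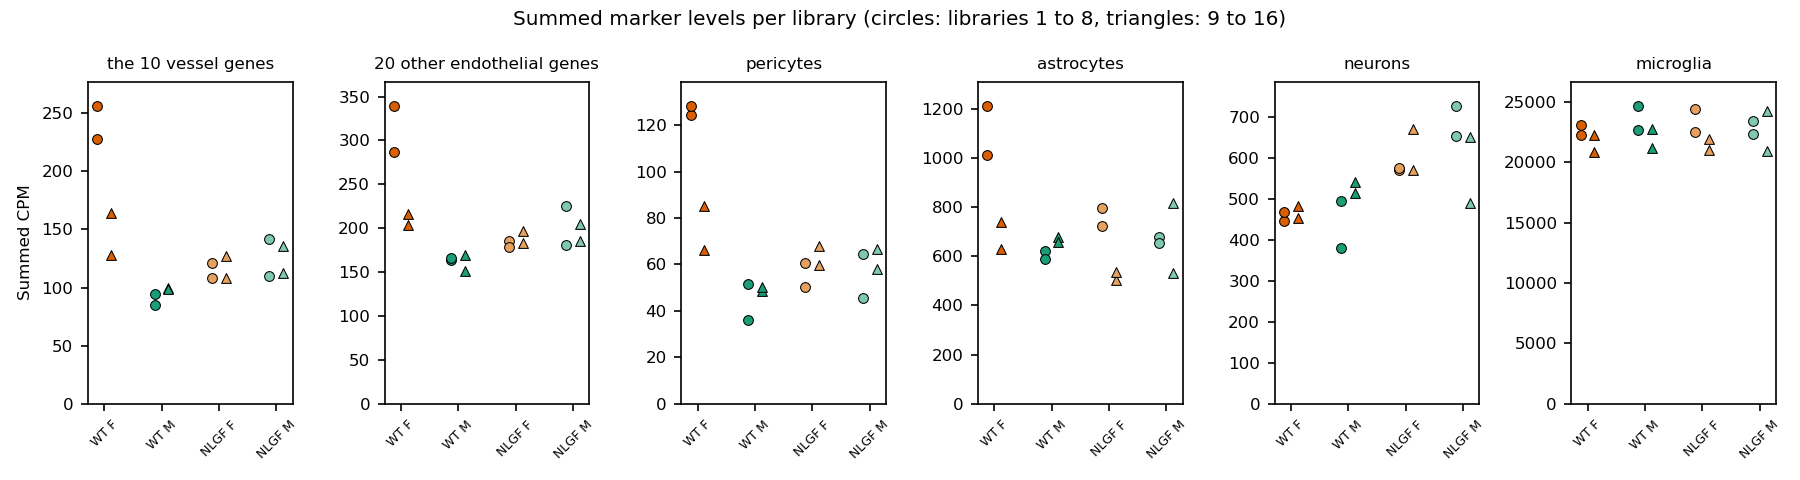
Summed CPM (vertical axis from 0, a separate scale for each panel) of the 10 vessel genes, 20 other endothelial genes and markers of pericytes, astrocytes, neurons and microglia in each library. Circles are library numbers 1 to 8 and triangles 9 to 16; the WT female circles stand above the other libraries in the endothelial, pericyte and astrocyte panels, and the microglial panel is level at 20860 to 24650 CPM.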

How the data were processed

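RNA of CD11b-selected olfactory bulb microglia was sequenced in 16 libraries (Takara SMART-Seq Stranded kit). Per the study's methods and the labels, the authors used STAR for alignment, on GRCm39 and gencode vM32, and they deposited raw counts per gene with no normalization; which strand column was counted is not given in the sources used here. A reporting form mentions technical replicates, for which the table has no columns of their own.

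Genes that reached 5 counts in 8 or more libraries entered the tests, were scaled by TMM and tested with edgeR 4.0.16 (R 4.3.3, quasi-likelihood, Benjamini-Hochberg over all genes kept): genotype with sex as a term, and the other comparisons in a fit of the 4 groups. Standard errors were derived from each log2 fold change and its F statistic. The procedure was tested on simulated data. Totals of 9052932 to 18117286 counts limit precision for genes with few counts, such as Alpl and Ackr1.

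Positions and transcript starts came from GRCm39 with GENCODE M39, a later release than the authors used. Likeness used genes of mean log2 CPM above 1, with a prior count of 2. Of each list, up to 4 called genes of smallest p were named, or, with none called, the 2 of highest level. Of the genes that this rule picks, 1 is not reported here, and Cavin3, Cavin4, Klf2 and Bcl6b were named outside it after their values were seen. The members and lists were chosen with earlier results of these data known. Alternatives were RLE size factors, library totals, no filter, DESeq2 1.42.0, limma voom 3.58.1, a replicate block, a library-number term, the FDR alone, an FDR of 0.05, no sex term, and each library left out. Leaving out WT female replicates 1 and 2 together, library numbers 1 to 8 or 9 to 16 alone, and the same settings for the gene lists were added after seeing the data.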

Additional observations from a re-analysis of the deposited data

Results flagged for a closer look

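The genotype effect of the 4 genes chosen by their levels went in opposite directions in the sexes, lower in all APP-NL-G-F female libraries than in all WT female libraries and higher in all APP-NL-G-F male libraries than in all WT male libraries. The effect in females minus that in males was -1.96 for Cavin1, -3.09 for Cavin2, -2.58 for Abcb1a and -3.17 for Alpl on the log2 scale. This difference was not tested, because these values selected the genes. Over all genes 7.41% had the separation in females and 1.83% that in males, and nothing is read from it for the chosen 4.

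The CPM of each member, the mean log2 CPM of each list and the library totals were searched for outlying libraries. In 6 of 120 groups of 4 libraries a library was far from the other 3, where 6 are expected by chance at 1 in 20. The 120 are not independent, since they share libraries and some lists share genes. The distance of that library to its nearest neighbour, relative to the whole range, was 0.936 for the endothelial junction list in WT male replicate 1 (highest), 0.933 for pericyte markers in WT male replicate 2 (lowest) and 0.887 for microglial markers in the same library (highest). It was 0.919 for olfactory ensheathing cell markers in APP-NL-G-F male replicate 4 (highest), 0.853 for arterial genes in APP-NL-G-F female replicate 3 (highest) and 0.831 for venular genes in APP-NL-G-F female replicate 4 (lowest). None of the 10 vessel genes was among these 6.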

How the results depend on the processing

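Of the alternative values, 1455 kept their direction and side of the threshold or moved within the spread. A call was lost by 45 and gained by 21, while 33 moved and 16 were counted as a change of sign. For the chosen 4 a change of sign was counted only where the main log2 fold change exceeded 0.5 in absolute value. Their changes of sign for genotype over both sexes are thus not among the 16. There Alpl ran from -0.19 to 0.55, Abcb1a from -0.31 to 0.42, Cavin1 from -0.38 to 0.29 and Cavin2 from -0.46 to 0.23. The cause of these changes was not tested. With no filter on low counts 3 of the 6 tested genes were called for genotype in males and 4 in the interaction (2.23% and 1.19% of all genes), DESeq2 called 4 in the interaction (0.444%), and an FDR of 0.05 left 3 for genotype in females (4.57%). With each library left out in turn, the count ranged from 1 to 5 for genotype in females, 1 to 4 between the WT sexes and 0 to 4 in the interaction, and stayed at 1 for genotype over both sexes and 0 for the other comparisons. The share of all genes called was 3.29% to 11.7% for genotype in females and 0.0721% to 1.89% between the WT sexes. It was 0.00554% to 0.238% in the interaction and 6.1% to 12.1% for genotype over both sexes. Without WT female replicates 1 and 2 together the count was 0 for genotype, 0 for genotype in females and 0 between the WT sexes. Of all genes 4.73%, 1.67% and 0.0546% were called there. Library numbers 9 to 16 alone gave 0, 0 and 0 in these comparisons, where 0.438%, 1.78% and 0.0383% of all genes were called. Numbers 1 to 8 alone gave 2 for genotype in males and 3 in the interaction, where 11.3% and 1.58% of all genes were called.

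For genotype over both sexes the log2 fold change of Flt1 ranged from -0.31 to 0.02 and of Slco1a4 from -0.32 to 0.07 over the 16 fits with a library left out. Without WT female replicates 1 and 2 together it was 0.28 for Flt1, 0.38 for Slco1a4, 0.05 for Cldn5 and 0 for Pecam1, and in numbers 9 to 16 alone 0.18 for Flt1, 0.06 for Slco1a4 and 0.10 for Cldn5. Between the sexes of APP-NL-G-F, with a library left out, Cldn5 ranged from -0.14 to 0.16, Slco1a4 from -0.05 to 0.39 and Ackr1 from -0.57 to 0.16, and Ackr1 was 0.16 in numbers 1 to 8 alone. Ackr1 between the WT sexes was -0.05 without WT female replicates 1 and 2 together.

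With the replicate number as a block the members called stayed at 1, 5, 0, 4, 0 and 0 in the 6 comparisons, in the order genotype, females, males, WT sexes, APP-NL-G-F sexes and interaction. In the same order 8.57%, 6.64%, 0.236%, 0.823%, 0.0439% and 0.0165% of all genes were called with this block. The labels do not say that a number marks a shared animal or day, and samples of the same number deviated together in 8 of 24 pairs at r over 0.1 (r from -0.33 to 0.29), so the numbers were not taken as pairs.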
